A study of Mus musculus with 12 samples.

Results

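The 9 genes described here, Map3k14, Chuk, Nfkb2, Relb, Traf1, Traf2, Traf3, Birc2 and Birc3, encode the core of the noncanonical NF-kB pathway. They were taken by symbol from the 47643 gene IDs of the count tables, and all 9 were among the 14034 genes that passed the filter on low counts. In this pathway the kinase NIK, encoded by Map3k14, is made continuously and destroyed just as continuously by a complex of the adaptors TRAF2 and TRAF3 and the ubiquitin ligases cIAP1 (Birc2) and cIAP2 (Birc3). When a receptor of the TNF family such as CD40, the lymphotoxin beta receptor or RANK is engaged, that complex is drawn away, NIK accumulates and activates IKK alpha (Chuk), and IKK alpha marks the precursor p100 (Nfkb2) for trimming to p52, the partner of RelB. RelB is best known in this lineage for its part in the development and maturation of dendritic cells, and most of the pathway's control is exerted on proteins, which counts of mRNA do not measure.

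The libraries hold poly(A) RNA of monocytes from the bone marrow of C57BL/6-background mice. The 6 groups were KO monocytes (Nr4a3 KO, sorted and not cultured), WT monocytes (wild type, sorted and not cultured), KO day 1 and WT day 1 (the same cells after 1 day with GM-CSF and IL-4), and KO day 2 and WT day 2 (after 2 days with both cytokines). GM-CSF with IL-4 is a standard mixture for turning monocytes into dendritic cells, Nr4a3 encodes an orphan nuclear receptor, and the series title poses the question of what NR4A3 does in that differentiation. Each group had 2 libraries from independent experiments, and the labels say neither which part of Nr4a3 was deleted nor the number of mice behind each library.

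Between 5905266 reads (KO day 2 replicate 1) and 18447405 reads (KO day 1 replicate 2) fell in genes, so that 3 reads, the limit read from a count of 0, correspond to 0.500 and 0.164 CPM, counts scaled to the size of the library. Nr4a3 had 0.929 and 0 CPM in KO monocytes against 0.307 and 0 CPM in WT monocytes, 6.58 and 0 CPM in KO day 1 against 16.5 and 10.5 CPM in WT day 1, and 39.0 and 19.3 CPM in KO day 2 against 1287 and 1358 CPM in WT day 2 (log2 fold change -5.51 ± 1.36, adjusted p = 0.389). The 76 reads behind the 6.58 CPM put the library labelled KO day 1 replicate 1 in doubt, although both KO day 2 libraries held Nr4a3 at higher CPM. On the first principal component KO day 1 replicate 1 lay at 1.60, against 38.4 to 46.7 for the other day 1 libraries. WT monocytes replicate 2 stood apart as well, with a summed level of 9 neutrophil markers of 3890 CPM against 968 CPM in WT monocytes replicate 1. In KO monocytes these markers summed to 1890 and 1248 CPM. The 5 monocyte markers summed to 8126 and 8640 CPM in KO monocytes and to 7830 and 9909 CPM in WT monocytes, and the 5 dendritic cell markers to 19620 and 22780 CPM in KO day 2 and to 15170 and 13810 CPM in WT day 2. Of these 5 dendritic cell markers, 3 had a positive log2 fold change, KO over WT, at day 2 and 0 were called. Cd74 made up most of the sum, at 13670 and 16070 CPM in KO day 2 and 11090 and 10410 CPM in WT day 2. Zbtb46 (60.2 and 85.5 CPM in KO, 73.7 and 97.1 CPM in WT) and Flt3 (7.34 and 2.045 CPM in KO, 13.1 and 7.84 CPM in WT) were lower in KO in both experiments. Markers of B cells (at most 16.1 CPM), of T and NK cells (at most 2.74 CPM) and of stromal and endothelial cells (at most 27.1 CPM) stayed low. The 6 erythroid markers moved with culture. They summed to 59.2 and 30.3 CPM in KO monocytes and 68.0 and 167 CPM in WT monocytes, to at most 0.173 CPM at day 1 with 5 of 6 at 0 in each library, and to 103 and 26.8 CPM in KO day 2 and 50.7 and 16.3 CPM in WT day 2. Their part in the results was not tested. By the dates in the deposited names, monocyte and day 1 libraries came from one pair of experiments and day 2 libraries from another. Day 2 and its experiments therefore cannot be told apart when day 2 is compared with an earlier stage, while KO and WT at a stage share their experiments. Replicate 1 of both day 2 groups also held Xist, which is transcribed from the inactive X, at 794 CPM in KO day 2 and 885 CPM in WT day 2, against no more than 1.01 CPM in every other library.

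Promoter windows of 250 bases directly before an annotated start were available from RefSeq (GRCm38.p6) for 8 of the 9 genes, all but Relb, as 11 windows. They are shown for Map3k14, which was called in KO against WT, for Traf1, whose change differed between the genotypes, and for 3 of the 4 windows that carry a match to the kappaB consensus, the sequence bound by NF-kB dimers, on either strand. Such a match was present in 4 of the 11 windows, which belong to 2 genes, Nfkb2 and Traf3, and in 3.9% of 32851 windows of the same length over all genes. The NBRE, the sequence AAAGGTCA bound by NR4A receptors as monomers, was in none of the 11 windows on either strand and in 1.34% of all windows. In the lines that follow, written 5′ to 3′ on the strand of the gene and ending at the base before the start, capitals mark the kappaB matches. Nfkb2 window 1 (chr19:46304487-46304736, plus strand) held 3 matches, of which 2 overlap, all within 39 bases of the start. Nfkb2 window 3 (chr19:46305680-46305929, plus strand) and Traf3 (chr12:111166120-111166369, plus strand) held 1 each, and that of Traf3 ends at the last base before the start. Map3k14 (chr11:103267402-103267651, minus strand) and Traf1 (chr2:34961773-34962022, minus strand), both of which rose in cultured WT cells, are shown without a match. A match describes letters only, and no match says only that these letters are not in these windows.
Nfkb2 window 1: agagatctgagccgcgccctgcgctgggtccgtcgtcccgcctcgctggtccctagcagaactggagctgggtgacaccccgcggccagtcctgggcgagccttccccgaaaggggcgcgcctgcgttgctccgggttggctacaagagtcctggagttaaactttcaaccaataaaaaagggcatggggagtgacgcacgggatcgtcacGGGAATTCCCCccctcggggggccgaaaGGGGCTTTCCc
Nfkb2 window 3: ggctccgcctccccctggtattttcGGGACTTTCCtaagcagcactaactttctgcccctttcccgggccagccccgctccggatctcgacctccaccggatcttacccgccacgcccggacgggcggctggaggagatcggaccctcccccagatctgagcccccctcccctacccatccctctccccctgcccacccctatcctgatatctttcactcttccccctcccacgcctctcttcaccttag
Traf3: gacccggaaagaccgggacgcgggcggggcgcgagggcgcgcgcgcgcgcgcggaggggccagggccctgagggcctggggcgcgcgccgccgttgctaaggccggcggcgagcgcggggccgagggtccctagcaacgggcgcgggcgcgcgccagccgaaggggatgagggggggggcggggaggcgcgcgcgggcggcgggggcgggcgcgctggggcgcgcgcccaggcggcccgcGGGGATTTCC
Map3k14: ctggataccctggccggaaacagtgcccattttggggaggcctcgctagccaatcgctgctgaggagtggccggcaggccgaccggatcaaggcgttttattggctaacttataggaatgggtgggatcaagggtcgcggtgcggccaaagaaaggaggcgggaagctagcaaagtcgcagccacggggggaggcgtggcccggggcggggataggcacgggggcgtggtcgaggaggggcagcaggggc
Traf1: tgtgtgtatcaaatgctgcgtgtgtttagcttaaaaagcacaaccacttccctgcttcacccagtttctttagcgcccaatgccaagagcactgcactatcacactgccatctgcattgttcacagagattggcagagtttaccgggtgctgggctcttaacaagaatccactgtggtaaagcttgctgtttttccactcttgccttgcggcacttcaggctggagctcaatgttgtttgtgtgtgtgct

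In KO cells at day 2 all 9 genes of the pathway were at a lower level than in WT cells of the same experiment, in both experiments, but only Map3k14 passed the test (edgeR, an adjusted p under 0.05 over all genes tested). Over all 14034 genes tested, 33.3% were below WT in both experiments at day 2. Map3k14 was the 1 gene of the 9 called, against 0.0998% of all genes called in that comparison (14 genes, every one of them lower in KO). At an unadjusted p under 0.05 there were 4 of the 9 and 444 of all genes. The median log2 fold change, KO over WT, was -0.71 over the 9 genes and 0.01 over all genes tested. Before culture and at day 1 none of the 9 was called by edgeR, against 0% of all genes in KO monocytes against WT monocytes and 0% in KO day 1 against WT day 1. At an unadjusted p under 0.05 these comparisons held 1 of the 9 genes and 557 of all genes in monocytes, and 0 of the 9 and 252 of all genes at day 1, while DESeq2 called 0 of the 9 at both stages and 3 and 1 of all genes. In the day 2 libraries the 5 markers of mature dendritic cells (Ccr7, Fscn1, Il4i1, Cd83 and Socs2) had summed levels of 1475 and 778 CPM in KO and 4613 and 4473 CPM in WT, with 5 of 5 at a negative log2 fold change, 0 of 5 called and none at 0. The 5 monocyte markers there summed to 2194 and 1387 CPM in KO and to 1587 and 630 CPM in WT. The 9 neutrophil markers summed to 603 and 1239 CPM in KO and to 239 and 893 CPM in WT, with 9 of 9 at a positive log2 fold change and 0 called. The part of these markers in the results was not tested, and in bulk RNA fewer cells of a type and less RNA per cell cannot be told apart.

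**Figure D1:**
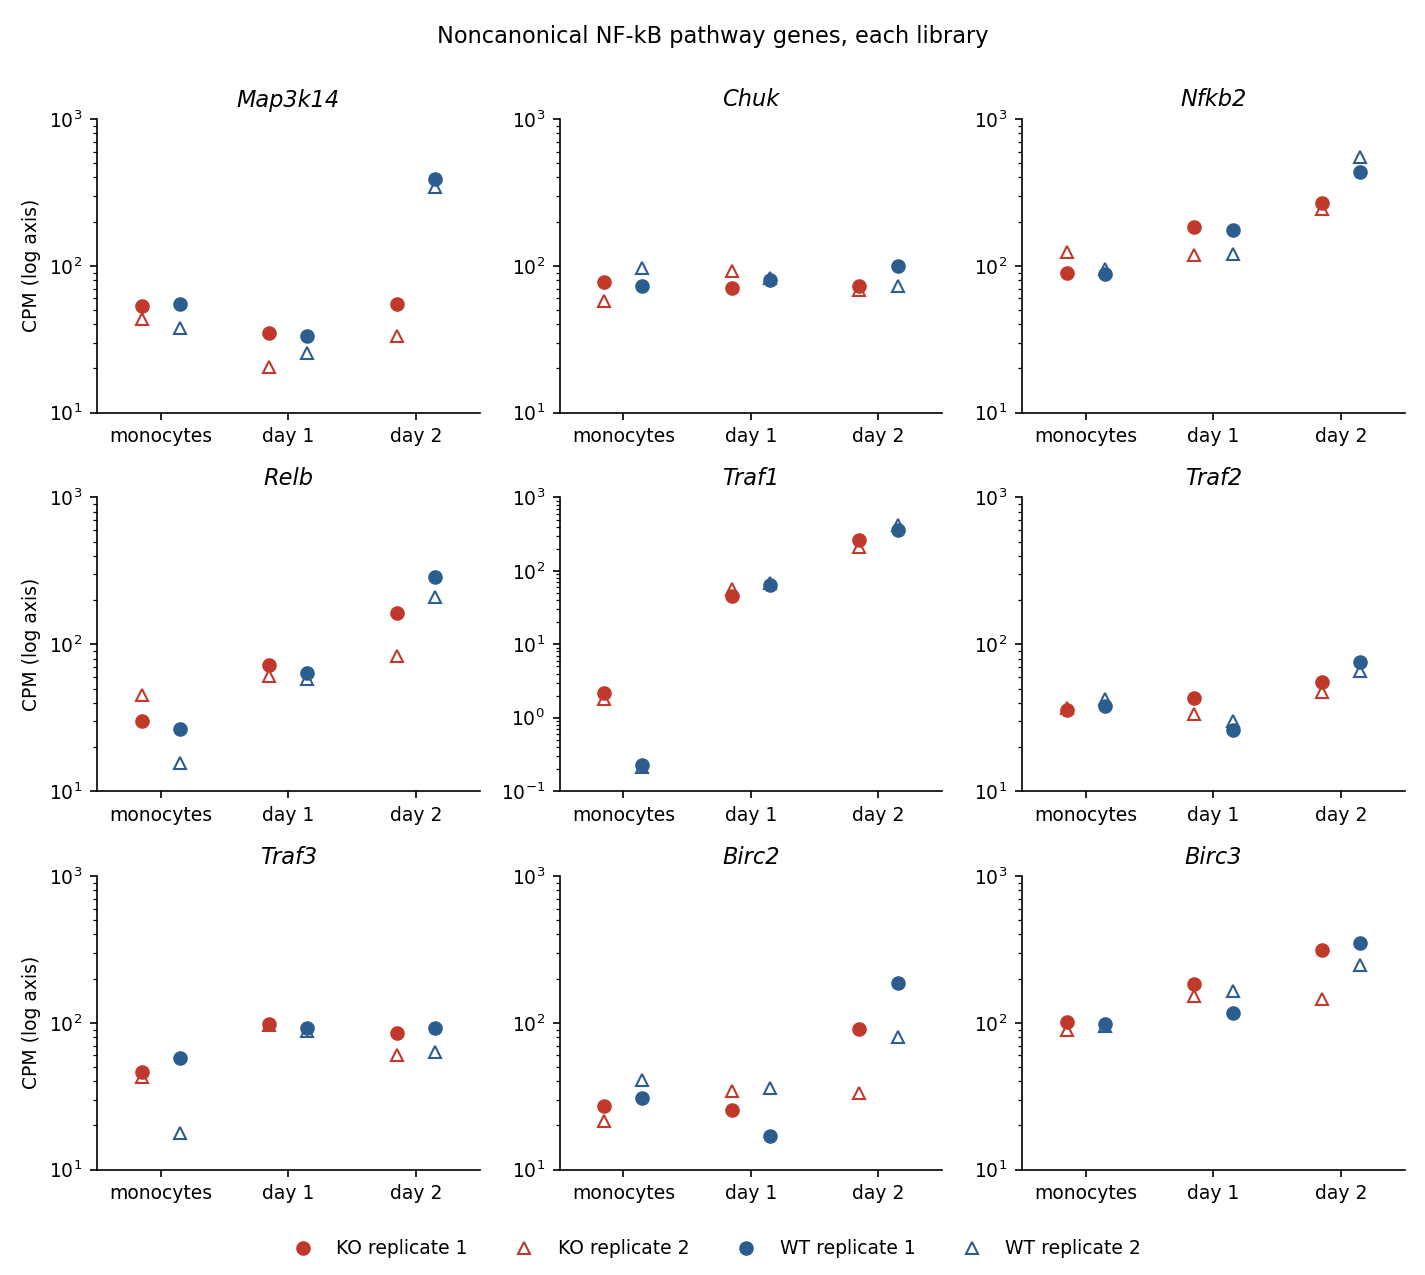
Level of each of the 9 genes in every library, in CPM on a log axis, with KO (red) left of WT (blue) at each stage and filled circles and open triangles for replicates 1 and 2. At day 2 Map3k14 stands at 55.0 and 33.4 CPM in KO and at 389 and 342 CPM in WT, whereas Chuk stays between 57.9 and 99.4 CPM in every library.

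Map3k14 (ENSMUSG00000020941, chr11:103219762-103267472, minus strand) encodes NIK, the kinase on which the pathway depends. It had 53.2 and 43.8 CPM in KO monocytes and 55.2 and 37.9 CPM in WT monocytes. At day 1 it had 34.8 and 20.4 CPM in KO cells and 33.0 and 25.5 CPM in WT cells. After 2 days of culture it had 55.0 and 33.4 CPM in KO cells and 389 and 342 CPM in WT cells. The 2 WT day 2 libraries thus stood above the other 10, none of which exceeded 55.2 CPM, and within the 2 experiments of day 2 the KO level was 0.142 and 0.0976 times the WT level. Map3k14 was lower in KO day 2 than in WT day 2 by the edgeR quasi-likelihood test, with a log2 fold change of -3.05 ± 0.38 (± SE here and for all log2 values of single genes, adjusted p = 0.0249). DESeq2 (adjusted p = 1.33e-11) and the fit with experiment as a block (-3.09, adjusted p = 0.00154) called it too. The call was lost without either WT day 2 library (adjusted p = 0.0942 without replicate 1 and 0.115 without replicate 2), without either KO day 2 library (0.0676 and 0.315), without either KO monocyte library (0.0706 and 0.0653) and in a fit of the day 2 groups alone (0.225), with log2 fold changes between -3.42 and -2.74.

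Map3k14 passed no test of KO day 2 against an earlier KO stage, with 0.68 ± 0.35 against KO day 1 (adjusted p = 0.355) and -0.14 ± 0.35 against KO monocytes (adjusted p = 0.831). In WT cells it rose by 3.64 ± 0.39 on the log2 scale against WT day 1 (adjusted p = 9.58e-04) and by 2.97 ± 0.37 against WT monocytes (adjusted p = 4.43e-04). The difference between the genotypes in these changes was -2.96 ± 0.50 against day 1 (adjusted p = 0.234) and -3.11 ± 0.50 against monocytes (adjusted p = 0.191), which did not pass over all genes. With experiment as a block both passed (adjusted p = 0.0382 and 0.00916), as they did with DESeq2 (2.20e-04 and 6.01e-05), and the second also passed without WT monocytes replicate 1 (0.0389). At day 1 the level against monocytes was -0.81 ± 0.35 in KO (adjusted p = 0.15) and -0.67 ± 0.35 in WT (adjusted p = 0.199), and the block gave -0.85 in KO (adjusted p = 0.0281). Without both libraries that stood apart, the KO value was -1.32 (adjusted p = 0.0243).

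Chuk (ENSMUSG00000025199, chr19:44073335-44107480, minus strand), the kinase that NIK activates, was called in none of the comparisons. It had 77.3 and 57.9 CPM in KO monocytes and 72.3 and 97.1 CPM in WT monocytes. At day 1 there were 71.0 and 92.3 CPM in KO cells and 80.4 and 82.8 CPM in WT cells. At day 2 there were 73.4 and 68.5 CPM in KO cells and 99.4 and 73.3 CPM in WT cells. The groups overlapped at every stage. The log2 fold change of KO day 2 against WT day 2 was -0.28 ± 0.28 (adjusted p = 1).

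Nfkb2 (ENSMUSG00000025225, chr19:46304320-46312385, plus strand) encodes p100, the precursor of p52. It had 89.7 and 125 CPM in KO monocytes and 87.8 and 95.02 CPM in WT monocytes. Day 1 levels were 185 and 118 CPM in KO cells and 177 and 120 CPM in WT cells. Day 2 levels were 266 and 242 CPM in KO cells and 435 and 551 CPM in WT cells. Both KO day 2 libraries lay below both WT day 2 libraries, and the genotypes overlapped at the earlier stages. The log2 fold change of KO day 2 against WT day 2 was -0.96 ± 0.32 (adjusted p = 0.872). Nfkb2 rose in KO cells by 1.24 ± 0.32 between monocytes and day 2 (adjusted p = 0.0232), and its difference of 0.75 ± 0.32 between day 1 and day 2 did not pass (adjusted p = 0.252). In WT cells it rose by 2.43 ± 0.33 between monocytes and day 2 (adjusted p = 7.32e-04) and by 1.73 ± 0.33 between day 1 and day 2 (adjusted p = 0.0135). The KO call was lost without any 1 of the 4 KO monocyte and KO day 2 libraries (0.0738 to 0.183), and the WT day 2 call against day 1 without WT day 1 replicate 1 (adjusted p = 0.0541), WT day 1 replicate 2 (0.118) or WT day 2 replicate 2 (0.0856).

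Relb (ENSMUSG00000002983, chr7:19606217-19629438, minus strand) encodes the partner of p52. It had 30.2 and 45.2 CPM in KO monocytes and 26.4 and 15.5 CPM in WT monocytes. Day 1 of culture gave 72.2 and 60.8 CPM in KO cells and 64.2 and 58.4 CPM in WT cells. Day 2 gave 164 and 83.1 CPM in KO cells and 286 and 208 CPM in WT cells. Its level was thus higher with each day of culture in both genotypes, with the KO libraries above WT before culture, mixed with WT at day 1 and below WT at day 2. The log2 fold change, KO over WT, was 0.84 ± 0.39 in monocytes (adjusted p = 0.998), 0.12 ± 0.38 at day 1 (adjusted p = 1) and -1.005 ± 0.38 at day 2 (adjusted p = 1). In KO cells Relb rose by 1.71 ± 0.39 between monocytes and day 2 (adjusted p = 0.0133). Neither single day passed in KO cells, with 0.82 ± 0.38 between monocytes and day 1 (adjusted p = 0.181) and 0.89 ± 0.38 between day 1 and day 2 (adjusted p = 0.259). In WT cells it rose by 1.54 ± 0.39 between monocytes and day 1 (adjusted p = 0.0187), by 2.01 ± 0.39 between day 1 and day 2 (adjusted p = 0.0152) and by 3.56 ± 0.42 between monocytes and day 2 (adjusted p = 3.28e-04). The KO rise was lost without KO day 2 replicate 1 (0.115), KO monocytes replicate 1 (0.127) or KO monocytes replicate 2 (0.0501). The WT rise of 1.54 was lost without WT monocytes replicate 2 (1.18, adjusted p = 0.0911), without either WT day 1 library (0.0837 and 0.0604) and in a fit of those groups alone (0.0601). That of 2.01 was lost without either WT day 1 library (0.0954 and 0.116) or WT day 2 replicate 1 (0.0806). The rise of 3.56 in WT cells was called in every alternative. For Relb, the difference between the genotypes in the change between monocytes and day 2 was -1.85 ± 0.54 (adjusted p = 1.00).

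Traf1 (ENSMUSG00000026875, chr2:34941750-34961772, minus strand) encodes an adaptor that binds TRAF2 and is itself switched on by NF-kB. It had 2.14 and 1.77 CPM in KO monocytes and 0.23 and 0.211 CPM in WT monocytes, from 30 and 25 reads in KO and 3 and 2 reads in WT. The day 1 values were 45.4 and 56.1 CPM in KO cells and 63.5 and 67.5 CPM in WT cells. The day 2 values were 267 and 213 CPM in KO cells and 362 and 425 CPM in WT cells. The groups did not overlap at any stage, with KO above WT before culture and below WT at day 1 and day 2. The ratio of the summed reads of KO monocytes to those of WT monocytes was 8.82, with a 95% interval of 3.56 to 28.2 that covers counting error only. The fitted log2 fold change was 3.08 ± 0.40 in monocytes (adjusted p = 0.155), -0.37 ± 0.25 at day 1 (adjusted p = 1) and -0.71 ± 0.25 at day 2 (adjusted p = 0.930). The monocyte difference passed without the filter on low counts (adjusted p = 2.55e-04) and without WT monocytes replicate 1 (0.0392).

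Of the 9 genes Traf1 had the largest change between monocytes and day 2 in both genotypes. It rose in KO cells by 4.69 ± 0.30 between monocytes and day 1 (adjusted p = 4.67e-05), by 2.24 ± 0.26 between day 1 and day 2 (adjusted p = 0.00224) and by 6.93 ± 0.33 over both days (adjusted p = 6.05e-06). In WT cells the rises were 8.14 ± 0.38 (adjusted p = 6.35e-06), 2.59 ± 0.26 (adjusted p = 7.52e-04) and 10.73 ± 0.41 (adjusted p = 6.43e-07). Since WT monocytes held 5 reads in all, the size of the WT rises is loosely fixed, with ratios of 295 (95% interval 126 to 910) at day 1 and 1767 (757 to 5443) at day 2 by counting error alone. Traf1 was the 1 gene of the 9 whose change between monocytes and day 2 differed between the genotypes over all genes tested (-3.80 ± 0.47, adjusted p = 0.0266), where 0.0285% of all genes, 4 in number, were called. That value combines log2 fold changes, KO over WT, of 3.08 in monocytes (55 and 5 reads) and -0.71 at day 2. Most of it thus lies in the low levels before culture. Between monocytes and day 1 the difference was -3.45 ± 0.47 (adjusted p = 0.265), with 0% of genes called, and between day 1 and day 2 it was -0.35 ± 0.35 (adjusted p = 1.00), also with 0% called. DESeq2 called 0 and 1 of the 9 genes there, the 1 being Map3k14, and 1 and 22 of all genes. At an unadjusted p under 0.05 there were 1 and 2 of the 9 genes and 400 and 340 of all genes. The difference of -3.80 remained past the threshold only without WT monocytes replicate 1 among the 12 fits that left out 1 library (adjusted p from 0.0374 to 0.288 over the 12). It was -3.19 with unstranded counts (adjusted p = 0.154) and -3.76 without both libraries that stood apart (adjusted p = 0.151). It passed with experiment as a block (adjusted p = 0.0387) and was lost in a fit of those groups alone (0.141). The rise in KO cells between day 1 and day 2 was lost in a fit of those groups alone (adjusted p = 0.0745).

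**Figure D2:**
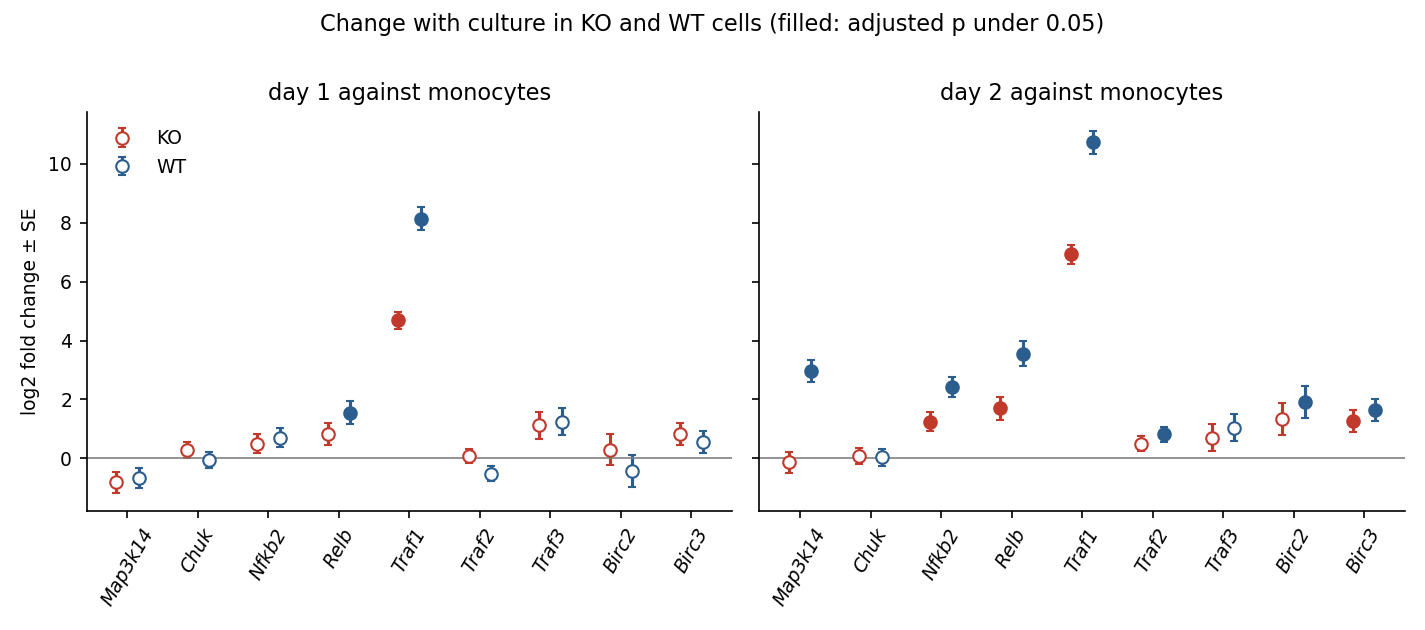
Log2 fold change with its SE for day 1 (left panel) and day 2 (right panel) against monocytes, KO (red) left of WT (blue) for each gene, with filled symbols where the adjusted p is under 0.05. Traf1 rises in both genotypes, by 6.93 in KO and 10.73 in WT at day 2, while Map3k14 at day 2 is at -0.14 in KO and 2.97 in WT.

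The 4 genes of the complex that destroys NIK were called at no stage in KO against WT. Traf2 (ENSMUSG00000026942, chr2:25517982-25546940, minus strand), the adaptor that brings the cIAP ligases to the complex, had 35.5 and 37.1 CPM in KO monocytes and 37.9 and 42.6 CPM in WT monocytes. At day 1 it stood at 43.2 and 33.5 CPM in KO cells and 26.0 and 30.2 CPM in WT cells. At day 2 it stood at 55.2 and 47.0 CPM in KO cells and 75.8 and 66.3 CPM in WT cells. KO stood above WT at day 1 without overlap and below WT at the other stages. The log2 fold changes were 0.45 ± 0.25 at day 1 and -0.48 ± 0.25 at day 2 (adjusted p = 1 for both). Traf2 rose in WT cells by 1.34 ± 0.25 between day 1 and day 2 (adjusted p = 0.0137), a call lost without either WT day 1 library (adjusted p = 0.105 and 0.0787) or either WT day 2 library (0.0925 and 0.0574). Against WT monocytes it rose by 0.82 ± 0.25 (adjusted p = 0.0382), a call that held among the leave-one-out fits only without KO day 1 replicate 1 or replicate 2 (adjusted p from 0.0532 to 0.224 without each of the other 10 in turn). It was also lost without the low-count filter (0.129), with unstranded counts (0.0528), in a fit of those groups alone (0.171) and without both libraries that stood apart (0.0516).

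Traf3 (ENSMUSG00000021277, chr12:111166370-111267153, plus strand), the adaptor that holds NIK in the complex, had 46.1 and 42.9 CPM in KO monocytes and 57.9 and 17.7 CPM in WT monocytes. It reached, at day 1, 97.8 and 96.0 CPM in KO cells and 92.7 and 87.7 CPM in WT cells. Its day 2 values were 84.7 and 60.1 CPM in KO cells and 92.8 and 63.2 CPM in WT cells. Both experiments of day 2 gave nearly the same level in KO as in WT, at 0.913 and 0.951 times, and the day 1 libraries stood above the monocyte libraries in both genotypes. No comparison called Traf3 in the main fit. Between KO day 1 and KO monocytes its difference was 1.12 ± 0.45 (adjusted p = 0.1245), and 1.03 without both libraries that stood apart. This KO difference passed without the low-count filter (adjusted p = 0.0279) and in a fit of those groups alone (0.0363). Between WT day 1 and WT monocytes it was 1.25 ± 0.45 (adjusted p = 0.0730, with 0.0391 by DESeq2 and 0.00946 without the low-count filter). That value rested on WT monocytes replicate 2, with 2.37 without replicate 1 (adjusted p = 0.00159) and 0.60 without replicate 2 (0.208), and with experiment as a block it was 1.36 (adjusted p = 0.0224). At day 2 the difference from WT monocytes was 1.04 ± 0.45 (adjusted p = 0.120, and 0.0344 without the low-count filter). It was 2.16 without WT monocytes replicate 1 and 0.40 without replicate 2.

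Birc2 (ENSMUSG00000057367, chr9:7818227-7837064, minus strand) and Birc3 (ENSMUSG00000032000, chr9:7848699-7873186, minus strand) encode the ligases cIAP1 and cIAP2 and are neighbours, 11634 bases apart. Their transcripts share some sequence with each other and with further genes. Of the 50-base stretches, 1.49% of those of Birc2 were also found among 3 other genes and 7.38% of those of Birc3 among 81. Reads from these stretches cannot be assigned to one gene. Birc2 had 27.3 and 21.5 CPM in KO monocytes and 30.6 and 40.6 CPM in WT monocytes. The level at day 1 was 25.6 and 34.2 CPM in KO cells and 16.9 and 35.7 CPM in WT cells. The level at day 2 was 91.2 and 33.3 CPM in KO cells and 187 and 79.8 CPM in WT cells. Replicate 1 of day 2, the experiment with Xist, had over 2 times the Birc2 level of replicate 2 in both genotypes, so that the groups overlapped although KO was at 0.488 and 0.417 times WT within the experiments. The log2 fold change of KO day 2 against WT day 2 was -1.10 ± 0.54 (adjusted p = 1). In KO cells the difference between monocytes and day 2 was 1.35 ± 0.55 (adjusted p = 0.115, and 0.00474 without the low-count filter). In WT cells Birc2 rose by 2.34 ± 0.56 between day 1 and day 2 (adjusted p = 0.0311) and by 1.91 ± 0.55 between monocytes and day 2 (adjusted p = 0.0316). The first was lost without WT day 1 replicate 1 (adjusted p = 0.182), WT day 1 replicate 2 (0.0814), WT day 2 replicate 1 (1.63, 0.185) or KO monocytes replicate 1 (0.0505). The second was lost without either WT monocyte library (0.0931 and 0.0744) or WT day 2 replicate 1 (1.15, 0.228), without both libraries that stood apart (0.130) and in a fit of those groups alone (0.0672).

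Birc3 had 101 and 89.1 CPM in KO monocytes and 97.8 and 95.2 CPM in WT monocytes. At day 1 it was measured at 184 and 152 CPM in KO cells and 117 and 165 CPM in WT cells. At day 2 it was measured at 315 and 145 CPM in KO cells and 352 and 249 CPM in WT cells. As for Birc2, day 2 replicate 1 was the higher in both genotypes and the groups overlapped. The log2 fold change of KO day 2 against WT day 2 was -0.39 ± 0.37 (adjusted p = 1), and it was 0.06 without KO day 2 replicate 2. Birc3 rose between monocytes and day 2 by 1.27 ± 0.37 in KO cells (adjusted p = 0.0388) and by 1.64 ± 0.37 in WT cells (adjusted p = 0.0110). The KO rise was lost without KO day 2 replicate 1 (0.63, adjusted p = 0.353), either KO monocyte library (0.147 and 0.207) or WT day 2 replicate 1 (0.0552) and in a fit of those groups alone (0.0577). The WT rise was lost without WT day 2 replicate 1 (adjusted p = 0.0717). The difference between KO monocytes and KO day 1 was 0.82 ± 0.37 (adjusted p = 0.164, and 0.0497 with experiment as a block). That between WT day 1 and WT day 2 was 1.09 ± 0.37 (adjusted p = 0.0949, with 0.0262 by DESeq2 and 0.0319 without the low-count filter).

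**Figure D3:**
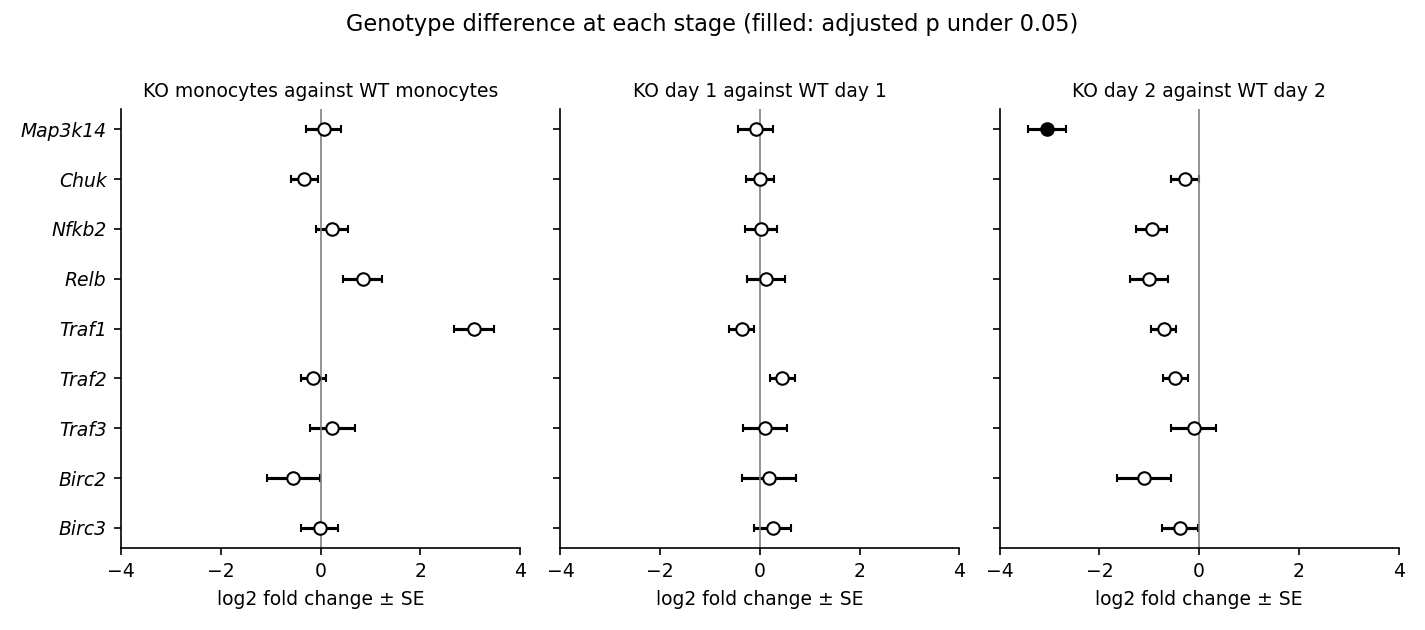
Log2 fold change of KO against WT with its SE for the 9 genes at each stage, with filled symbols where the adjusted p is under 0.05. At day 2 all 9 values are below 0, from -3.05 for Map3k14 to -0.11 for Traf3, and in monocytes Traf1 stands at 3.08.

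By the dates in the deposited names, same-numbered KO and WT libraries at a stage came from 1 experiment. The day 2 libraries, whose dates are consecutive days, were therefore also compared as pairs. In the paired fit of these 4 libraries alone, 6 of the 9 genes were lower in KO, against 12.7% of the 12233 genes tested there that were called in either direction. They were Map3k14 (-3.09 ± 0.16, adjusted p = 1.20e-04), Birc2 (-1.14 ± 0.12, adjusted p = 8.86e-04), Relb (-1.07 ± 0.15, adjusted p = 0.00534), Nfkb2 (-0.95 ± 0.14, adjusted p = 0.00618), Traf2 (-0.48 ± 0.11, adjusted p = 0.0263) and Traf1 (-0.72 ± 0.16, adjusted p = 0.0298). Birc3 (adjusted p = 0.138), Chuk (0.189) and Traf3 (0.589) did not pass in that fit. A fit of the same 4 libraries without pairing called 0 of the 9 genes and 3 of all genes. With the block over all 12 libraries 35 of all genes were called, and of the 9 only Map3k14 passed. The calls of the other 5 therefore rest on the spread within the 2 pairs. The paired fit also sets 2 group terms and 1 pair term on 4 libraries. It has far fewer residual degrees of freedom than the 6 of the main fit, so its SEs and calls are loosely fixed.

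More of the 9 genes were called higher with culture in WT than in KO cells, a difference between counts that was not itself tested. Between monocytes and day 1, 1 of the 9 rose in KO cells (Traf1), against 7.7% of all genes called higher and 6.14% called lower. In WT cells 2 rose (Relb and Traf1), against 11.4% higher and 10.1% lower. With experiment as a block the KO count was 3, with Traf1 and Birc3 higher and Map3k14 lower, against 21.3% of all genes called in either direction in that fit. Between day 1 and day 2, 1 of the 9 rose in KO cells (Traf1), against 1.5% higher and 0.542% lower, and 6 rose in WT cells (Map3k14, Nfkb2, Relb, Traf1, Traf2 and Birc2), against 4.67% higher and 3.51% lower. Over both days 4 of the 9 rose in KO cells (Nfkb2, Relb, Traf1 and Birc3), against 9.95% higher and 7.57% lower, and 7 rose in WT cells, all but Traf3 and Chuk, against 12.7% higher and 9.89% lower. With no block and all 12 libraries in the fit, edgeR called none of the 9 lower with culture. A gene called in one genotype and not in the other was not shown to differ between them. The edgeR test of that difference passed for Traf1 alone in the fit without a block, and for Traf1 and Map3k14 with it. The median log2 fold change over both days was 1.24 for the 9 genes in KO cells, with 0.08 over all genes, and 1.91 in WT cells, with 0.09 over all genes. Without both libraries that stood apart, 1 gene rose in WT cells between monocytes and day 1 and 5 over both days.

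Levels between genes were compared per exon length, in TPM, which scales counts to length and library size. In KO day 2 the order of mean TPM was Nfkb2 (168), Birc3 (140), Relb (96.9), Traf1 (82.6), Chuk (42.2), Birc2 (41.6), Traf2 (30.4), Traf3 (29.9) and Map3k14 (20.6). In WT day 2 it was Nfkb2 (330), Relb (195), Birc3 (184), Map3k14 (171), Traf1 (137), Birc2 (89.2), Chuk (52.1), Traf2 (42.7) and Traf3 (32.6). Map3k14 thus had the lowest mean of the 9 in KO day 2 and stood among the upper 4 in WT day 2. In WT day 2 the libraries of Relb, Birc3 and Map3k14 overlapped, as did those of Birc2 and Chuk and those of Chuk and Traf2, while Nfkb2 stood above Relb in both libraries (290 and 370 against 165 and 225 TPM at the extremes). In KO day 2 the libraries of Nfkb2 and Birc3 overlapped, as did those of Birc3, Relb and Traf1. Those of Birc2 overlapped those of Chuk, Traf2 and Traf3, and those of Traf2 and Traf3 overlapped too. Those of Map3k14 (15.0 and 26.1 TPM) overlapped those of Birc2 and of Traf3. In monocytes Nfkb2 again had the highest mean, at 67.8 TPM in KO and 49.6 TPM in WT. Its libraries overlapped those of Birc3 in both genotypes and those of Chuk in WT, and in WT monocytes the mean of Birc3 was 48.5 TPM. Traf1 was lowest in monocytes, at 0.655 TPM in KO and 0.0633 TPM in WT.

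**Figure D4:**
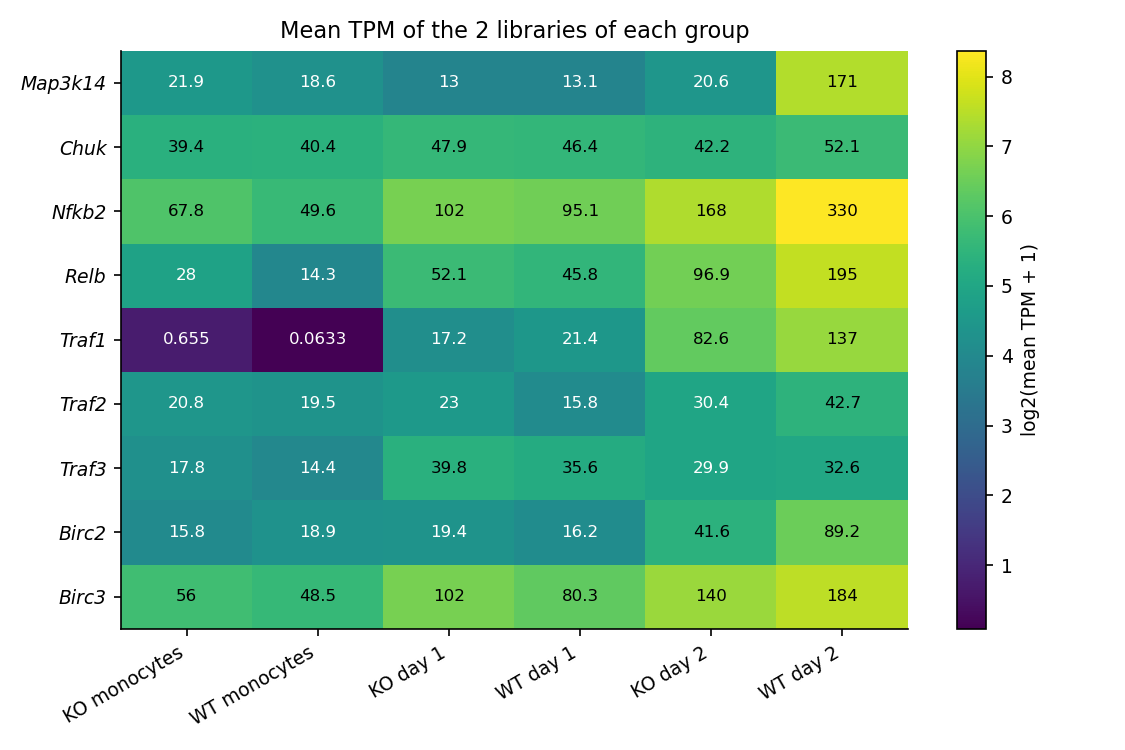
Mean TPM of the 2 libraries of each group for the 9 genes, written in the cells and coloured by log2 of the mean plus 1, with KO left of WT at each stage. At day 2 Map3k14 shows 20.6 in KO and 171 in WT, while Nfkb2 has the highest value in every group but KO day 1, where it and Birc3 are both at 102.

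Across the 12 libraries the 9 genes did not follow 1 pattern. By Pearson correlation of log2 CPM, Relb was closest to Nfkb2 (r = 0.93), Birc3 (0.91) and Traf1 (0.91), whereas Map3k14 and Traf1, both high in WT day 2, had r = 0.34, and Chuk reached no more than 0.42, with Birc2. The genes outside the pathway most like Map3k14 over the 12 libraries were Atmin (r = 0.98), Tmem127 (0.96) and Ggta1 (0.95). For Relb they were Ddhd1 (0.97), Rab10 (0.97) and Foxp4 (0.97), for Nfkb2 Arpin (0.98), Ankrd33b (0.96) and Aco1 (0.95), and among those for Traf1 were Shtn1 (0.98) and Bhlhe40 (0.98). The closest gene was Celf1 for Traf3 (0.97), Olr1 for Birc3 (0.96), St5 for Traf2 (0.95), Nck1 for Birc2 (0.95) and Phf6 for Chuk (0.87). These points share their libraries and the 3 stages of culture, so the values describe likeness of profile only.

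The other genes of the pathway were read from lists of 52 further genes, of which 44 were tested. In KO day 2 against WT day 2 none of the 44 was called, 7 had an unadjusted p under 0.05, as had 444 of the 14034 genes tested, and their median log2 fold change was -0.08, beside 0.01 over all genes. Among the receptors, Cd40 had 356 and 198 CPM in KO day 2 and 224 and 230 CPM in WT day 2 (0.29 ± 0.33, adjusted p = 1). Tnfrsf1b, the second TNF receptor, had 413 and 86.9 CPM in KO day 2 and 465 and 164 CPM in WT day 2 (-0.33 ± 0.67, adjusted p = 1). The levels of CD40 mRNA in the genotypes overlapped, and Tnfrsf1b split by experiment as Birc2 did. Tnfrsf11a, which encodes RANK and was picked here after its values were seen, had 13.2 and 11.5 CPM in KO day 2 and 83.4 and 85.0 CPM in WT day 2, without overlap (-2.77 ± 0.69, adjusted p = 0.389). Among the ligands, Tnfsf4 (OX40 ligand) had 0.834 and 2.13 CPM in KO day 2 and 26.9 and 108 CPM in WT day 2 (-5.42 ± 1.10, adjusted p = 0.298), without overlap. Most ligands went the other way. Of the 9 tested, 7 had a positive log2 fold change, the median was 0.44 and 0 were called. Of the other subunits, Rel had 344 and 290 CPM in KO day 2 and 618 and 534 CPM in WT day 2 (-0.86 ± 0.30, adjusted p = 0.942), and Nfkb1 had 622 and 627 CPM in KO day 2 and 835 and 1012 CPM in WT day 2 (-0.56 ± 0.31, adjusted p = 1). Both lay below WT in both experiments, whereas 3 of the 8 genes of that list had a positive log2 fold change, and 0 of the 8 were called. Ccl22, a chemokine gene described as a target of RelB with p52, had 5087 and 3532 CPM in KO day 2 and 10750 and 15970 CPM in WT day 2 (-1.63 ± 0.56, adjusted p = 0.927). Icosl, another described target, had 25.2 and 19.6 CPM in KO day 2 and 23.7 and 18.3 CPM in WT day 2 (0.09 ± 0.28, adjusted p = 1).

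**Figure D5:**
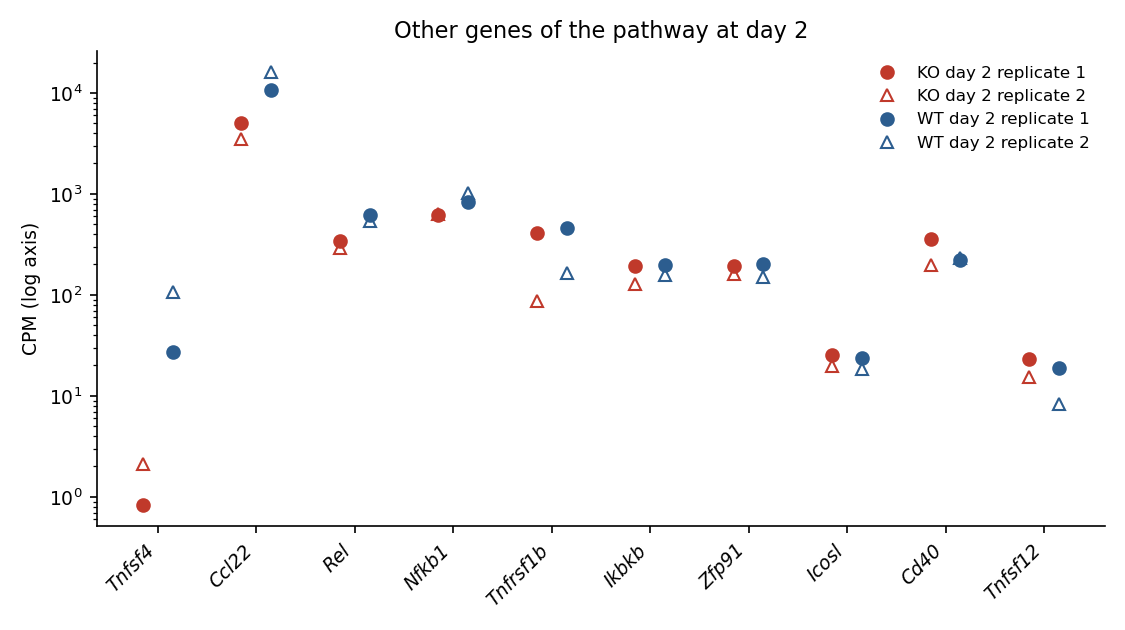
CPM on a log axis of 10 further genes of the pathway in the day 2 libraries, KO (red) left of WT (blue), with filled circles and open triangles for replicates 1 and 2, ordered by log2 fold change. Tnfsf4 lies at 0.834 and 2.13 CPM in KO and at 26.9 and 108 CPM in WT, and Icosl and Cd40 overlap.

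Between monocytes and day 2, 12 of the 44 genes rose and 3 fell in KO cells, where 9.95% of all genes rose and 7.57% fell. In WT cells 20 rose and 6 fell, where 12.7% of all genes rose and 9.89% fell. Their median log2 fold changes were 0.71 in KO cells and 1.01 in WT cells beside 0.08 and 0.09 over all genes. In KO cells 3 of the 9 ligands tested rose and 1 fell, 3 of 9 receptors rose and 1 fell, 2 of 14 regulators of NIK, TRAF3 and p100 rose, 1 of 5 described targets rose and 1 fell, and 3 of 8 other subunits and inhibitors rose. In WT cells 3 ligands rose and 2 fell, 5 receptors rose and 1 fell, 6 regulators rose, 1 target rose and 3 fell, and 5 other subunits and inhibitors rose and 1 fell. Tnfsf13b, which fell in WT cells, stands in the lists of both ligands and targets and is counted in each. Cd40 rose in both, by 3.08 ± 0.36 in KO cells (adjusted p = 3.66e-04) and by 3.07 ± 0.36 in WT cells (adjusted p = 2.91e-04). Rel rose by 2.16 ± 0.31 in KO cells (adjusted p = 0.00124) and by 2.92 ± 0.32 in WT cells (adjusted p = 2.19e-04), and Nfkbie, an inhibitor of NF-kB, by 3.05 ± 0.30 in KO cells (adjusted p = 1.41e-04) and by 2.39 ± 0.29 in WT cells (adjusted p = 3.65e-04). Otud7b, a deubiquitinase that spares TRAF3, rose by 3.29 ± 0.67 in KO cells (adjusted p = 0.00753) and by 4.29 ± 0.70 in WT cells (adjusted p = 0.00191). In WT cells Ltbr, the lymphotoxin beta receptor, fell by 1.505 ± 0.25 (58.8 and 44.1 CPM in WT day 2 against 145 and 148 CPM in WT monocytes, adjusted p = 0.00193). Ltbr was also lower in cultured KO cells, with 62.9 and 57.1 CPM in KO day 2 against 142.8 and 157.5 CPM in KO monocytes. It was called lower in KO cells between monocytes and day 1 (-0.87 ± 0.24, adjusted p = 0.0390). Tnfrsf11a had 13.2 and 11.5 CPM in KO day 2 against 14.9 and 6.67 CPM in KO monocytes (0.20 ± 0.66, adjusted p = 0.872). In WT monocytes Tnfrsf11a had 17.85 and 3.48 CPM. Its rise in WT cells is given against day 1 instead (83.4 and 85.0 CPM in WT day 2 against 8.42 and 4.73 CPM in WT day 1, 3.68 ± 0.71, adjusted p = 0.0149). These KO and WT values have different baselines and are not a comparison of the genotypes.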

How the data were processed

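The deposited files hold raw read counts per gene, 1 file a library, in the column the authors' counting step gives for the reverse strand, which was the one used here. Per the submitters' processing notes, reads were trimmed with Trimmomatic 0.35 and aligned with STAR 2.5.1b to GRCm38, while the sources used here do not give the annotation release. Per the labels' protocols the libraries were made from poly(A) RNA with a stranded kit. Reads on the opposite strand came to 3.63% to 5.33% of a library, reads mapping to several places, which were not counted, to 5.29% to 8.94%, and unmapped reads to 2.65% to 7.91%. Gene IDs were named from GENCODE M21 (47224 of 47643 matched without the version number, 39106 with it). Nfkb2, Traf2 and Traf3 overlap genes on the opposite strand and Map3k14 a gene on its own strand, whose shared reads cannot be assigned.

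All 12 libraries of the 6 groups entered 1 edgeR 4.0.16 quasi-likelihood fit (R 4.3.3, TMM scaling, filterByExpr, no covariate, 6 residual degrees of freedom, biological coefficient of variation 0.393), and p-values were adjusted over 14034 genes by Benjamini and Hochberg, with a threshold of 0.05. CPM were taken over TMM-scaled library sizes, and log2 CPM used a prior count of 2. TPM used exon lengths. The fit was also run on simulated counts with large changes in genes of high counts and no experiment effect. That run does not cover smaller changes, low counts or libraries that stand apart. Replicates differed beyond counting noise (chi-square per degree of freedom at least 34.7). Same-numbered KO and WT libraries of a stage share an experiment per the labels and the dates in the deposited names, and their deviations from the group means had correlations of 0.236 for monocytes, 0.194 for day 1 and 0.657 for day 2 libraries, so the fit with experiment as a block is given where it changes a call. The block has 1 term within the experiments of monocytes and day 1 and 1 within those of day 2. It takes the spread between experiments out of the error, so it is not used for single genes where day 2 is compared with an earlier stage of the same genotype. The names of both day 1 replicate 2 files give a shorter culture, in hours, than the labels' 1 day, and the labels were followed. Alternatives were DESeq2 1.42.0, other scalings, no filter, unstranded counts, the compared groups alone, each library left out and both libraries that stood apart left out, and the block without both was added after seeing the data. Members and lists were chosen with earlier results of these data known. Further pathway genes were named per comparison and list, the called ones by lowest adjusted p (at most 3) and the uncalled ones by mean level (at most 2), and the genes most alike were those with the highest correlation among genes averaging at least 5 CPM, given for 4 members and as the closest gene for the others. A gene among them is not reported here.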

Additional observations from a re-analysis of the deposited data

Results flagged for a closer look

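The change of Traf1 between monocytes and day 2 differed between the genotypes by the test of that difference across all genes, with a KO minus WT difference of -3.80 on the log2 scale (edgeR adjusted p = 0.0266). It is given because 2 genotypes moved by different amounts under the same comparison. The monocytes held 55 Traf1 reads in KO and 5 in WT, and 11 of the 12 fits without 1 library put the adjusted p above the threshold. Most of the -3.80 lies in those monocyte levels, with log2 fold changes, KO over WT, of 3.08 in monocytes and -0.71 at day 2.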

How the results depend on the processing

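Of 2313 recomputed log2 fold changes of the 9 genes, 2125 kept their direction and side of the threshold, 74 fell short of it, 43 newly passed, 71 changed sign while called in neither, and 0 of those called changed sign. Other scalings moved the median of all genes by at most 0.0888. The number of the 9 genes called moved by more than 1.5 times as follows, and the cause was not tested beyond the smaller number of libraries or genes in a fit. Without the low-count filter it was 1 in KO monocytes against WT monocytes, 2 in KO day 1 against KO monocytes, and 1, 1 and 2 for the KO minus WT difference in the changes between monocytes and day 1, day 1 and day 2, and monocytes and day 2. In fits of the compared groups alone it was 0 in KO day 2 against WT day 2, 2 in KO day 1 against KO monocytes, 0 in KO day 2 against KO day 1, 1 in WT day 1 against WT monocytes and 0 for the difference between monocytes and day 2. DESeq2 gave 1 and 2 for the differences between day 1 and day 2 and between monocytes and day 2. Without both libraries that stood apart it was 3 in KO day 1 against KO monocytes, 1 in WT day 1 against WT monocytes and 0 for the difference between monocytes and day 2, where unstranded counts gave 0 too.

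With experiment as a replicate block the number was 3 in KO day 1 against KO monocytes, and 1 and 2 for the differences between day 1 and day 2 and between monocytes and day 2. With the block in the compared groups alone it was 6 in KO day 2 against WT day 2 and 2 in KO day 1 against KO monocytes, and with the block but without both libraries that stood apart, an alternative chosen after seeing the data, 3 in KO day 1 against KO monocytes and 0 for the difference between monocytes and day 2. Leaving out 1 library at a time gave 0 to 1 in KO monocytes against WT monocytes, 0 to 1 in KO day 2 against WT day 2, 1 to 2 in KO day 1 against KO monocytes, 1 to 4 in KO day 2 against KO monocytes, 1 to 3 in WT day 1 against WT monocytes, 2 to 6 in WT day 2 against WT day 1, 4 to 7 in WT day 2 against WT monocytes and 0 to 2 for the difference between monocytes and day 2. Genes with few reads, such as Traf1 in WT monocytes, are limited by depth.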
